A study of Homo sapiens with 6 samples.

Results

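Tubulins are the building blocks of microtubules, and 10 human tubulin genes were followed here: 4 α-tubulins (TUBA1A, TUBA1B, TUBA1C and TUBA4A) and 6 β-tubulins (TUBB, TUBB2A, TUBB2B, TUBB3, TUBB4B and TUBB6). They are 10 of the 20044 genes named on the array and were represented by 14 of its 47316 probes. All 14 were taken, matched by the current gene symbols of the Entrez identifiers in the platform annotation. The family was chosen by name with the differences between HBO1 siRNA and control siRNA arrays already known, so its values are a description and nothing is rested on them. The arrays came from UWB1.289, a human ovarian carcinoma line without functional BRCA1. RNA was taken 48 hours after transfection with siRNA against HBO1 (siHBO1, 3 arrays) or with a scrambled siRNA (siCTRL, 3 arrays), and all 6 arrays share the line and the transfection. HBO1 is the histone acetyltransferase encoded by KAT7, and the design sets siHBO1 against siCTRL to ask what its loss does to transcript levels. Neither the siRNA sequences nor the origin of the replicates from separate cultures is given in the labels, so the spread between arrays may be technical.

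An α-tubulin and a β-tubulin join as a dimer, and dimers polymerise head to tail into the wall of the microtubule, which serves as a track for motor proteins and forms the mitotic spindle. The isotypes are encoded by separate genes and differ mainly in their acidic C-terminal tails, where modifying enzymes and microtubule-associated proteins act. Most dividing cells rely on TUBA1B, TUBA1C, TUBB and TUBB4B, whereas TUBB3 (class III β-tubulin), TUBB2B and TUBA1A are typical of developing neurons. TUBB3 is also made by many carcinomas, and in ovarian carcinoma it has been studied as a marker of resistance to taxanes. Free tubulin feeds back on its own messages: the ribosome-associated factor TTC5 recognises nascent tubulin and, through SCAPER and the CCR4-NOT deadenylase, starts the decay of tubulin mRNA.

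The siRNA target was checked first. The KAT7 probe read normalised log2 intensities of 5.59, 6.29 and 5.98 on the siHBO1 arrays, against 7.98, 7.93 and 7.56 on the siCTRL arrays. The groups did not overlap, and the log2 fold change was -1.87 (SE 0.20, limma adjusted p = 0.0187). The probe was near background in siHBO1, where it was detected on 2 of 3 arrays, so the share of control signal left (27.3%) is rough: it ran from 24.3% to 60.0% over the 14 alternatives that tested the probe, and 10 of them called it. Of the line's 12 listed ovarian carcinoma and epithelial markers, 11 (PAX8, MUC16 and EPCAM among them) were detected on all 6 arrays. Of 6 fibroblast markers 1 was, and COL3A1, LUM and PDGFRA were detected on 0 arrays. Of 7 immune and endothelial markers, PTPRC and CD3E were detected on 0 arrays, but CD14, CD68, CDH5 and PECAM1 were detected on all 6. None of these 4 was called in limma's test, while 2 (CD14 at 0.79 and PECAM1 at 0.68) were higher in siHBO1 at an unadjusted p under 0.05, and the list's median was 0.38. Between 20546 and 21507 probes were detected per array. Over the whole table, 582 of 21333 tested probes were called, meaning an adjusted p under 0.05 in limma over all tested probes, with 314 higher and 268 lower in siHBO1. With median scaling in place of quantile normalisation the split was 235 higher and 379 lower.

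The 2 tubulin genes that differed between the groups, TUBB3 and TUBB2B, have the following sequences before their RefSeq transcription starts, shown because the probe values turn on these genes. TUBB2A is added as the neighbouring and closely related gene of TUBB2B that was not called. Each line gives the 200 bases that end just before the start, read 5′ to 3′ on the gene's own strand (RefSeq, GRCh38.p14). Capitals mark the CCAAT box (CCAAT or its complement ATTGG), the cAMP-response half-site (TGACG or its complement CGTCA) and the letters TATAA on the gene's strand. RefSeq lists 2 starts for TUBB3, and the platform annotation does not say which of them the measured transcript uses.
TUBB3 downstream start, chr16:89923142-89923341, plus strand: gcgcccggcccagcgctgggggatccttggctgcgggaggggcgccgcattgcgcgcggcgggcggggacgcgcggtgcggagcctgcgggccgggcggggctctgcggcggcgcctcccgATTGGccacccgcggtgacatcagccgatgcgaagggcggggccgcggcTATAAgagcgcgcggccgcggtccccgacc
TUBB3 upstream start, chr16:89921725-89921924, plus strand: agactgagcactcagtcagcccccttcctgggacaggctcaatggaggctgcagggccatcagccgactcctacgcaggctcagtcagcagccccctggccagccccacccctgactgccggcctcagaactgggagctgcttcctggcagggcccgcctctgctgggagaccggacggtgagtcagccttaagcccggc
TUBB2B, chr6:3227654-3227853, minus strand: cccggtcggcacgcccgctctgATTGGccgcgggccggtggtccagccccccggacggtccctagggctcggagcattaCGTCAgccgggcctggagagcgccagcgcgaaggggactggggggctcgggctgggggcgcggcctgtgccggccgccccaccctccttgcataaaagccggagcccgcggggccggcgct
TUBB2A, chr6:3157545-3157744, minus strand: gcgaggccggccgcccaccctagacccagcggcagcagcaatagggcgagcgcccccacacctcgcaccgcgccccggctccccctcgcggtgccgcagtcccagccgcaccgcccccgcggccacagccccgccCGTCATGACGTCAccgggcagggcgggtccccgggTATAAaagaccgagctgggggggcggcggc

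The window before the downstream TUBB3 start held ATTGG, beginning 79 bases before the start, and TATAA, beginning 30 bases before it. The window before the upstream TUBB3 start held none of the 3 motifs. TUBB2B held ATTGG beginning 178 bases and CGTCA beginning 121 bases before its start, and no TATAA. TUBB2A held TATAA beginning 30 bases before its start and overlapping matches of CGTCA and TGACG, with no CCAAT box. Over the 15 windows of the 10 genes, a CCAAT box on either strand was found in 9 windows, against 28.0% of 35116 RefSeq windows of the same length. Of the TUBA1C windows, 2 overlap and hold the same CCAAT box, which is therefore counted in both. The half-site was found in 3 of the 15 windows, against 18.4% of all windows, and TATAA in 5 of 15, against 11.1%. The motifs were picked after the sequences had been read, and a match is a description of letters, not of a bound site.

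Of the 14 tubulin probes, 2 were called and both were higher in siHBO1: TUBB3 at 2.00-fold and TUBB2B at 2.10-fold. The other 12 probes, which cover the remaining 8 genes, were not called, with 6 log2 fold changes above 0 and 6 below, between -0.16 and 0.14. Over all tested probes 2.73% were called and 1.47% were called higher. Since the family was taken with this contrast known, nothing is read from the comparison of these shares. All 14 probes were detected on all 6 arrays, so none was lost to the filter on dim probes. The median log2 fold change of the 14 probes was 0.06, against -0.01 over all tested probes. In RNA from whole cultures, a change in the share of cells that express a gene and a change in RNA per cell cannot be told apart.

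**Figure D1:**
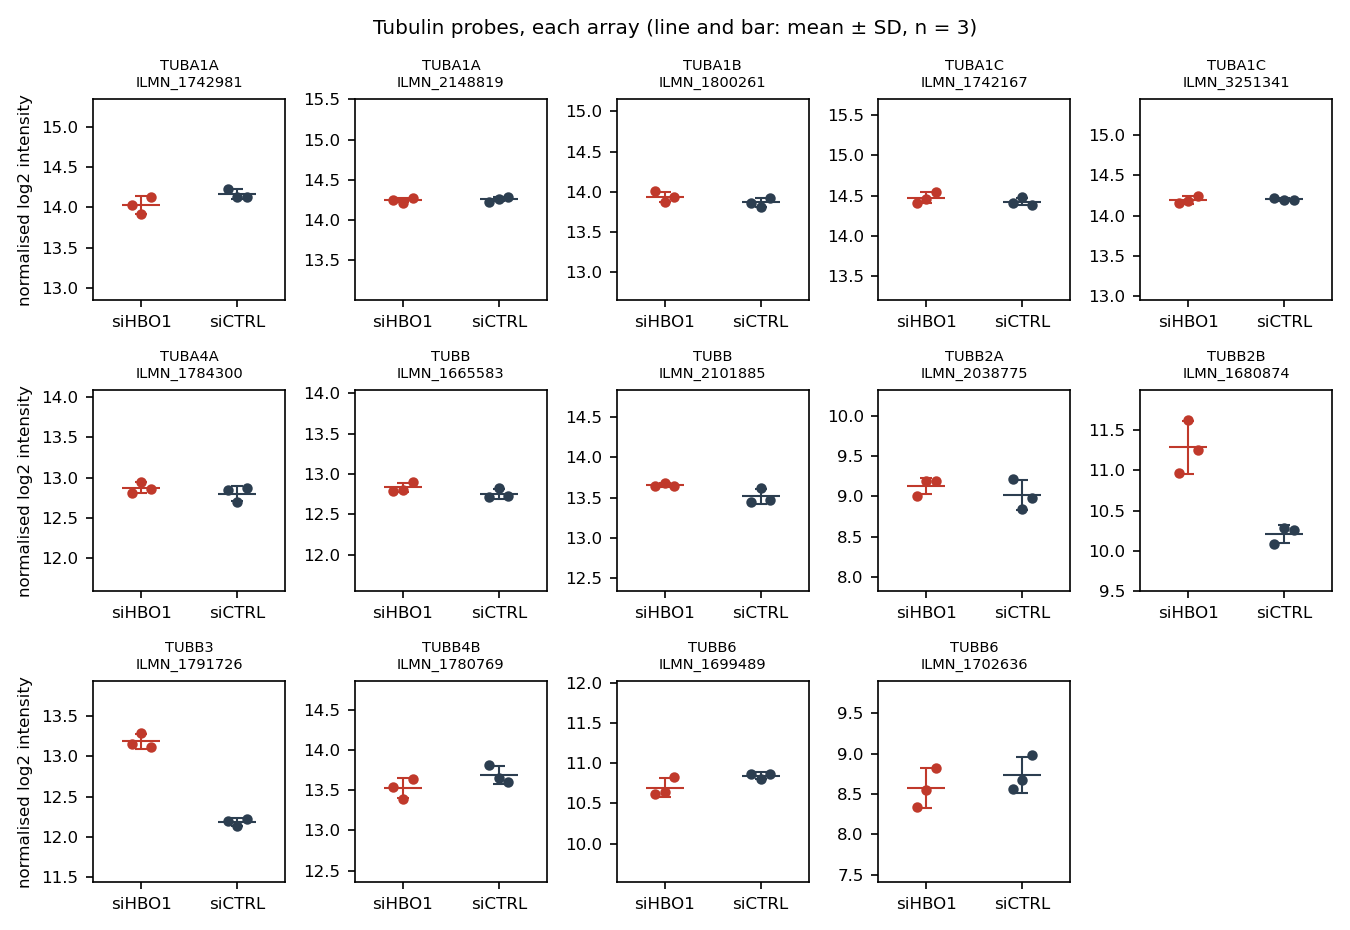
Normalised log2 intensity of each tubulin probe on each array, siHBO1 (red, left) and siCTRL (dark, right), with mean and SD (n = 3 each) and the same height of axis in every panel. TUBB3 and TUBB2B are separated by about 1 log2 unit, and the other 12 panels are nearly level.

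TUBB3, class III β-tubulin, was read by 1 probe (ILMN_1791726). Its deposited bead signals were 9042, 9566 and 8923 on the siHBO1 arrays, against 5260, 5074 and 4764 on the siCTRL arrays. After normalisation these were log2 intensities of 13.15, 13.29 and 13.12 in siHBO1, against 12.20, 12.13 and 12.23 in siCTRL. All 3 siHBO1 arrays lay above all 3 siCTRL arrays, and the gap between the groups was several times the spread within either. The means were 13.19 ± 0.09 in siHBO1 and 12.19 ± 0.05 in siCTRL (SD, n = 3 each). The log2 fold change was 1.00 (SE 0.09), with a 95% confidence interval of 0.78 to 1.22, or 1.72-fold to 2.32-fold.

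TUBB2B, a class II β-tubulin abundant in migrating neurons of the developing cortex, was also read by 1 probe (ILMN_1680874). Its bead signals were 2123, 3134 and 2613 on the siHBO1 arrays, against 1354, 1550 and 1355 on the siCTRL arrays. The normalised log2 intensities were 10.97, 11.63 and 11.25 in siHBO1, against 10.08, 10.29 and 10.26 in siCTRL. The groups did not overlap, and the siHBO1 arrays were more widely spaced than the siCTRL arrays, with replicate 2 the highest. The means were 11.29 ± 0.33 in siHBO1 and 10.21 ± 0.11 in siCTRL (SD, n = 3 each). The log2 fold change was 1.07 (SE 0.17), with a 95% confidence interval of 0.67 to 1.48, or 1.59-fold to 2.78-fold. Replicate 2 also had the highest TUBB3 value of the siHBO1 arrays.

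The TUBB3 value was set beside those of other bright probes. Of 2847 tested probes with a mean log2 intensity of at least 12, 32 were called, 20 of them higher in siHBO1, and 2 had a log2 fold change as high as that of TUBB3 or higher. The other was a probe of SBK1, a serine/threonine kinase. Over all 21333 tested probes, TUBB3 stood at rank 105 by log2 fold change and rank 13 by unadjusted p. TUBB2B stood at rank 73 and rank 262. The intensity limit of 12, which TUBB3 passes and TUBB2B does not, was set after the values were seen. The family was also chosen with this contrast known, so nothing is read from these counts and ranks.

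**Figure D2:**
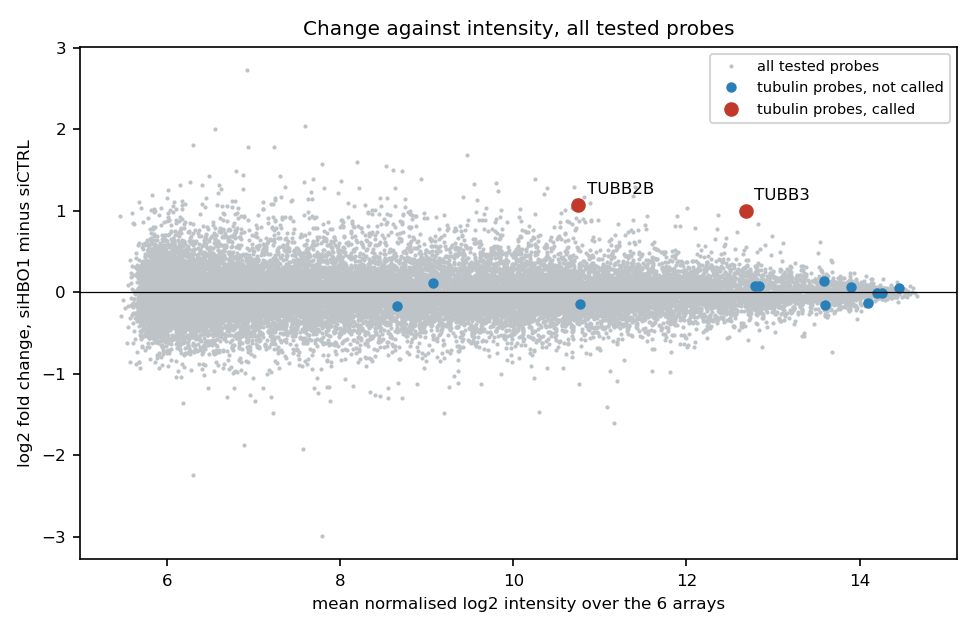
Log2 fold change (siHBO1 minus siCTRL) against mean normalised log2 intensity over the 6 arrays for all 21333 tested probes (grey), with the 12 uncalled tubulin probes in blue and the 2 called ones in red. TUBB3 lies at the bright end, where few probes moved by as much as 1.00.

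Both values stayed between 0.90 and 1.23 under the 15 alternatives tried, while their calls were lost in fits with 1 array fewer. Under the 9 alternatives that use all 6 arrays, TUBB3 was called each time at log2 fold changes of 0.92 to 1.01, and TUBB2B each time at 0.97 to 1.07. Leaving out 1 array gave 0.95 to 1.03 for TUBB3, which lost its call without siHBO1 replicate 1, siHBO1 replicate 2, siCTRL replicate 2 or siCTRL replicate 3. It gave 0.90 to 1.23 for TUBB2B, which lost its call in each of the 6 fits that leave out an array. In those 6 fits the number of called probes of the whole table was also lower, from 1 without siCTRL replicate 2 or siCTRL replicate 3 to 268 without siHBO1 replicate 3.

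**Figure D3:**
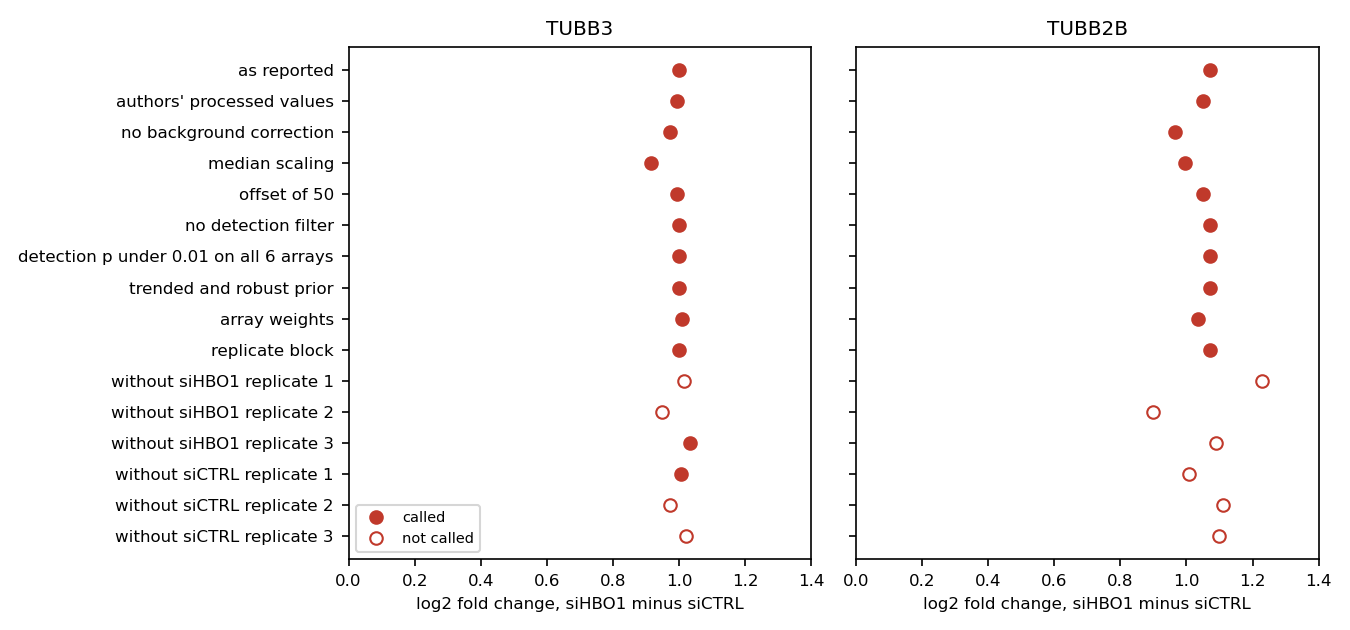
Log2 fold change (siHBO1 minus siCTRL) of TUBB3 and TUBB2B as reported and under 15 alternatives, filled where the probe was called and open where it was not. All points lie between 0.90 and 1.23, and the open points are all fits that leave out 1 array.

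The other β-tubulins differed little between the groups. TUBB2A, the class II gene beside TUBB2B, read 9.01, 9.19 and 9.19 on the siHBO1 arrays, against 9.21, 8.85 and 8.98 on the siCTRL arrays. These groups overlapped, and the log2 fold change was 0.11 (SE 0.12), with a 95% confidence interval of -0.17 to 0.40. TUBB2A and TUBB2B encode near-identical proteins, and the sequences of their probes were not examined, so how far each probe also reads the other transcript was not tested.

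TUBB, the class I isotype of most cells, had 2 probes. The brighter one (ILMN_2101885) read 13.64, 13.69 and 13.65 in siHBO1, against 13.45, 13.62 and 13.48 in siCTRL. Its groups did not overlap, but the gap between the nearest arrays was small, and the log2 fold change of 0.14 (SE 0.09) was not called. The dimmer TUBB probe (ILMN_1665583) was at 0.08 (SE 0.09), with overlapping groups.

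TUBB4B, a widely expressed isotype that is abundant in cilia, read 13.55, 13.39 and 13.64 in siHBO1, against 13.81, 13.65 and 13.60 in siCTRL. The groups overlapped at a log2 fold change of -0.16 (SE 0.11). TUBB6, class V β-tubulin, gave -0.15 (SE 0.10) on its brighter probe and -0.16 (SE 0.16) on its dimmer one, and the groups overlapped on both. TUBB4B and both TUBB6 probes were below 0 under all 15 alternatives, with TUBB4B between -0.24 and -0.09. Groups did not overlap for 3 of the 14 tubulin probes (TUBB3, TUBB2B and the brighter TUBB probe), beside 27.1% of all tested probes.

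None of the 6 α-tubulin probes was called. TUBA1A, the main α-tubulin of new neurons, read 14.03, 13.92 and 14.13 in siHBO1, against 14.23, 14.13 and 14.13 in siCTRL, on ILMN_1742981. The log2 fold change there was -0.13 (SE 0.10), and on the second TUBA1A probe it was -0.01 (SE 0.08). TUBA1B, which most dividing cells make, was at 0.07 (SE 0.09). TUBA1C was at 0.05 (SE 0.09) and -0.01 (SE 0.08) on its 2 probes. TUBA4A, an α-tubulin encoded without the terminal tyrosine, was at 0.07 (SE 0.09). The groups overlapped for all 6 probes. The sequences of these probes were not examined either, so how far each also reads another α-tubulin transcript was not tested.

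The precision of these small values can be given as an interval. The 95% confidence intervals of the 12 uncalled tubulin probes lay between -0.55 and 0.40 on the log2 scale, and the lowest bound came from the dimmer TUBB6 probe. TUBB3, by comparison, had a lower bound of 0.78. The TUBA1A, TUBA1B and TUBA1C probes were among the brightest on the arrays. TUBA4A was dimmer, with bead signals from 7174 to 7607 in siHBO1 and from 7363 to 8059 in siCTRL. The brighter TUBA1C probe read bead signals from 21745 to 24014 in siHBO1 and from 21338 to 24094 in siCTRL, where the brightest probe of each array read 25786 to 27417. Whether signals that high are compressed was not tested.

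**Figure D4:**
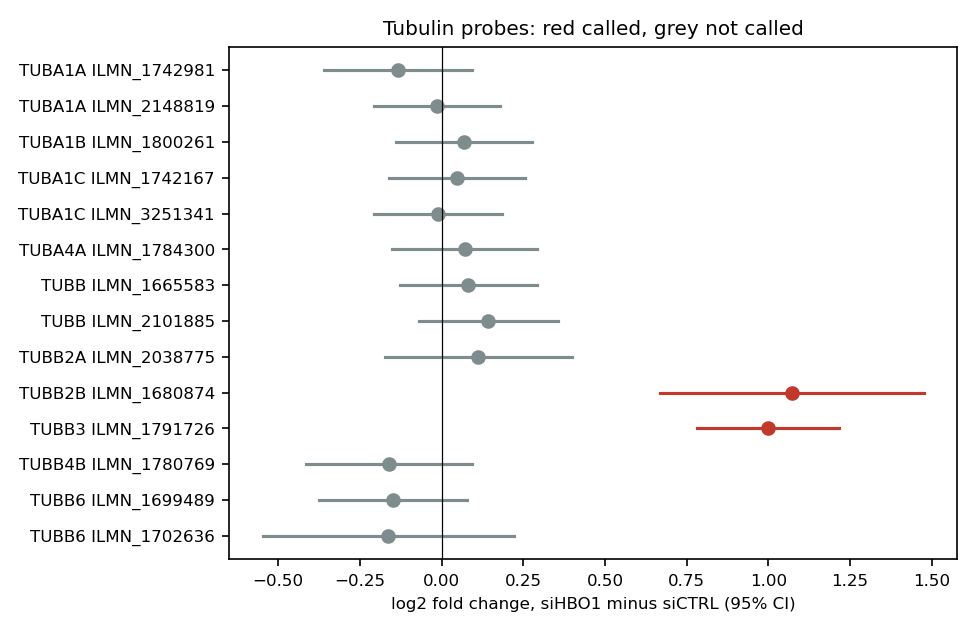
Log2 fold change (siHBO1 minus siCTRL) of the 14 tubulin probes with 95% confidence intervals from limma, red where called and grey where not. The intervals of TUBB3 (0.78 to 1.22) and TUBB2B (0.67 to 1.48) lie to the right of all others, and the other 12 intervals include 0.

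The members' positions in the genome were set beside the values of neighbouring genes. TUBB3 lies on chromosome 16 between MC1R, the melanocortin receptor, and DEF8. The MC1R probe had log2 intensities of 8.94, 8.92 and 8.66 in siHBO1, against 8.37, 8.20 and 8.45 in siCTRL, and was not called in limma's test at 0.50 (SE 0.12, adjusted p = 0.0729). Its groups did not overlap. RNA that runs from MC1R into TUBB3 is known in human cells, and whether either probe reads it was not tested. DEF8 was at 0.08 (SE 0.10). TUBB2B lies on chromosome 6 between TUBB2A and PSMG4, a proteasome assembly chaperone, which was at -0.25 (SE 0.11, limma adjusted p = 0.259). TUBA1A, TUBA1B and TUBA1C lie side by side on chromosome 12, and all 3 were uncalled.

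The genes whose pattern was most like that of TUBB2B were taken by Pearson correlation of log2 intensity over the 6 arrays. TUBB2B was used because it had the largest log2 fold change of the tubulin probes, but that order is not firm: without background correction it was at 0.966, against 0.971 for TUBB3, and without siHBO1 replicate 2 at 0.899, against 0.948. The 5 highest among named genes were ALPL, tissue-nonspecific alkaline phosphatase (r = 0.997), TNFRSF19, a receptor of the tumour necrosis factor family (r = 0.996), RESF1 (r = 0.995), SEPSECS, an enzyme of selenocysteine synthesis (r = 0.994), and DPYSL2, a collapsin response mediator protein (r = 0.994). These 6 arrays form 2 groups, so a high correlation mostly restates a difference between the groups. ALPL (log2 fold change 1.28) and TNFRSF19 (1.10) were called, while RESF1 (0.22), SEPSECS (0.36) and DPYSL2 (0.45) were not.

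The rest of the microtubule system was read from 9 lists of genes grouped by known function, which were written with earlier results of these data known. Each gene was taken by its brightest tested probe. Of 101 tested genes, 2 rose and 1 fell, beside 3.19% of all 12227 tested genes called in either direction. Their median log2 fold change was -0.02, against 0.01 over all genes. For the counts without adjustment given below, 12.9% of all tested genes were higher and 10.9% lower at an unadjusted p under 0.05, and 48.2% had a value below 0.

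Both rises were in microtubule-associated proteins that bind along the lattice. Of 13 tested genes there, 2 rose and 0 fell, beside 1.91% of all tested genes called higher, and the median was -0.05. Without adjustment 3 were higher and 1 lower, the lower one being DCLK1, a doublecortin-like kinase, which had the lowest value of the list at -0.80 (SE 0.26, limma adjusted p = 0.136) with overlapping groups, and -0.56 on its second probe. MAP2, the protein that bundles microtubules in dendrites, read 10.42, 10.68 and 10.22 in siHBO1, against 9.22, 9.22 and 9.17 in siCTRL. The groups were far apart, at a log2 fold change of 1.24 (SE 0.13, limma adjusted p = 0.0187). A second MAP2 probe (ILMN_2388484) rose by 1.34 (SE 0.15), while ILMN_2283915, a dim probe, was at -0.08 (SE 0.10), and ILMN_2276461 was detected on 1 of 3 siHBO1 arrays and on 0 siCTRL arrays. MAP2 lost its call in 4 of the 15 alternatives, with a range of 1.02 to 1.35. MAP1B, a stabiliser of axonal microtubules, read 7.26, 6.96 and 7.03 in siHBO1, against 6.23, 6.57 and 6.36 in siCTRL. It rose by 0.69 (SE 0.13, limma adjusted p = 0.0429) without overlap after normalisation. The probe was dim. Its bead signals before normalisation did overlap, at 334, 287 and 329 in siHBO1, against 275, 298 and 261 in siCTRL. MAP1B was called under 6 of the 14 alternatives that tested it, at 0.25 to 0.78. MAP4, the general counterpart outside neurons, was at -0.06 (SE 0.13).

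**Figure D5:**
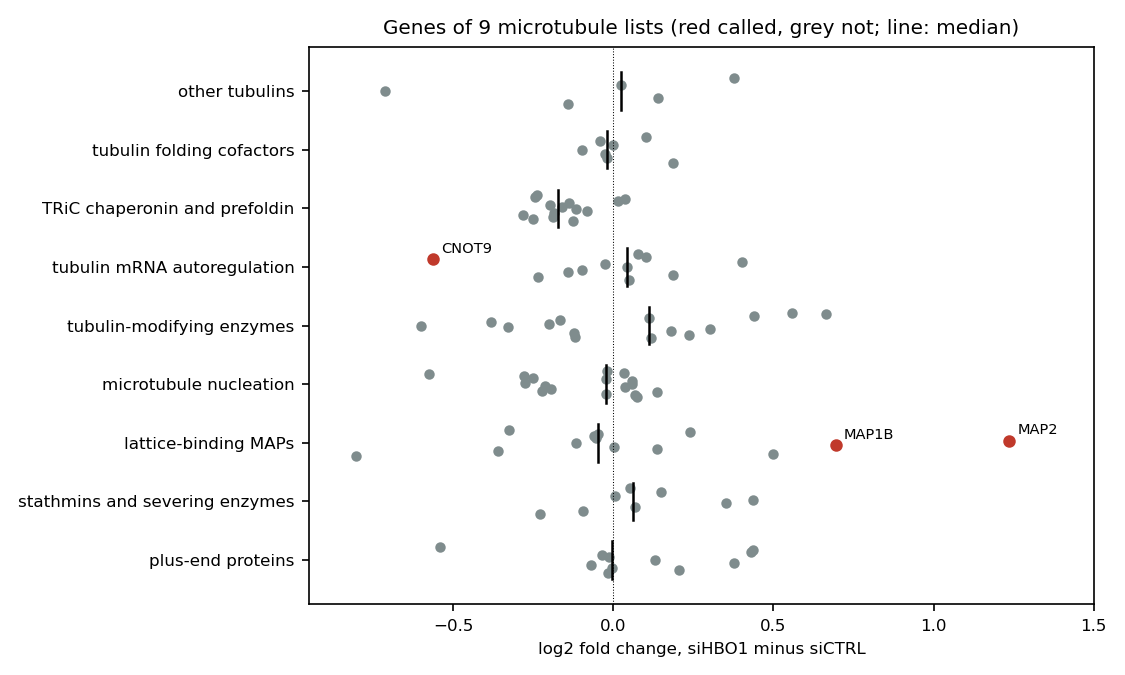
Log2 fold change (siHBO1 minus siCTRL) of each tested gene of the 9 microtubule lists, taken by its brightest probe, with called genes in red and each list's median as a black line. MAP2 (1.24) and MAP1B (0.69) lie to the right, CNOT9 (-0.56) to the left, and all other points are grey.

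In the list of tubulin mRNA autoregulation, 0 of 11 tested genes rose, 1 fell and the median was 0.04, with 1 higher and 2 lower without adjustment. The fall was that of CNOT9, a subunit of the CCR4-NOT deadenylase. It read 10.74, 10.71 and 10.83 in siHBO1, against 11.24, 11.34 and 11.39 in siCTRL. The log2 fold change was -0.56 (SE 0.09, limma adjusted p = 0.0336), it was called under 7 of the 15 alternatives, and the groups did not overlap. TTC5, which recognises nascent tubulin, was at 0.08, and SCAPER, the adaptor to the deadenylase, at 0.10. CNOT11, the CCR4-NOT subunit that SCAPER contacts, was at 0.19. The gene that was higher without adjustment was CNOT8, another CCR4-NOT subunit, at 0.40 (SE 0.13, limma adjusted p = 0.135). Its groups did not overlap, it was called under 2 of the 15 alternatives, and a second tested probe was at 0.10.

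Folding genes gave 0 calls. For the tubulin folding cofactors, 0 of 7 rose and 0 fell in limma's test, and 0 passed an unadjusted p of 0.05. The largest values were 0.19 for ARL2, a small GTPase that works with the cofactors, and 0.10 for TBCEL. For the TRiC chaperonin and its partner prefoldin, which fold new tubulin, 0 of 14 rose and 0 fell, 12 of 14 values were below 0 and the median was -0.17. At an unadjusted p of 0.05, 4 were lower and 0 higher, with CCT5 at -0.28 (SE 0.11) and CCT3 at -0.25 (SE 0.10).

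The other lists also had 0 calls in limma's test. Among 15 tubulin-modifying enzymes, an unadjusted p under 0.05 was reached by 1 higher and 3 lower genes, and the largest values were 0.66 for VASH1, which removes the terminal tyrosine of α-tubulin (SE 0.15, limma adjusted p = 0.0697), and -0.60 for TTLL1, a polyglutamylase (SE 0.13, limma adjusted p = 0.0596). VASH1 was detected on 3 of 3 siHBO1 arrays and on 1 of 3 siCTRL arrays, and was at 0.19 at the low end of its alternatives. A second TTLL1 probe was at -0.04 (SE 0.26). Among 17 nucleation genes, 0 higher and 2 lower genes reached it. The largest values were -0.58 (SE 0.17) for TUBGCP4, a γ-tubulin ring subunit, and -0.28 (SE 0.19) for TUBGCP3, which did not reach it and was detected on 1 of 3 siHBO1 arrays. Among 8 stathmins and severing enzymes, 2 were higher and 1 lower unadjusted, with KATNAL2 at 0.44 (SE 0.16) and KATNAL1 at 0.35 (SE 0.13), both katanin-like. Among 11 plus-end proteins, 3 were higher and 1 lower unadjusted, with SLAIN1 at 0.44 (SE 0.15) and SLAIN2 at -0.54 (SE 0.15).

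Of 12 further tubulin genes, 5 were tested and 0 were called in limma's test, and an unadjusted p under 0.05 was reached by TUBG2 and TUBE1. TUBE1, ε-tubulin of the centriole, read 8.37, 8.01 and 8.45 in siHBO1, against 8.93, 8.87 and 9.17 in siCTRL. It was just short of the threshold at -0.71 (SE 0.15, limma adjusted p = 0.054), with groups that did not overlap, and it was called under 7 of the 15 alternatives. Its second probe was at -0.42 (SE 0.13, limma adjusted p = 0.134). TUBG2, a γ-tubulin, was at 0.38 (SE 0.12, limma adjusted p = 0.147), TUBD1, δ-tubulin, at 0.14 (SE 0.11) and TUBA3D at -0.14 (SE 0.10). TUBG1, the main γ-tubulin of the centrosome, was at 0.02 (SE 0.09) on its brightest probe. Its 3 other tested probes ran from -0.28 to -0.02, uncalled and with overlapping groups. A further TUBG1 probe (ILMN_1663607) was detected on 0 arrays.

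Since TUBB3, TUBB2B and MAP2 are best known from neurons, markers of that cell type were set beside them. Of 12 listed neuron markers, 5 (INA, NEFH, NEFM, SNAP25 and SYT1) were detected on all 6 arrays and 5 (ELAVL4, GAP43, NEFL, RBFOX3 and SYP) on 0 arrays. Of 5 tested, 2 rose and 0 fell, beside 1.91% of all tested genes called higher, and the median was 0.07. The 3 others were not called, and the values of the list ran from -0.10 to 0.94, with 4 above 0 and 1 below. SYT1, the calcium sensor of synaptic vesicles, rose by 0.94 (SE 0.11, limma adjusted p = 0.0209), and SNAP25, a membrane fusion protein, rose by 0.70 (SE 0.09, limma adjusted p = 0.0216). SYT1 was called under 10 of the 14 alternatives that tested it, at 0.36 to 1.03. Its probe was dim, with bead signals of 342, 324 and 366 in siHBO1, against 300, 287 and 256 in siCTRL. SNAP25 was called under 10 of 15, at 0.47 to 0.75. A second SYT1 probe (ILMN_1838187) was detected on 0 arrays. A second SNAP25 probe (ILMN_2408080) was detected on 0 siHBO1 arrays and on 1 siCTRL array. The summed normalised intensity of the neuron marker probes ranged from 4639 to 4922 in siHBO1 and from 4157 to 4411 in siCTRL. Their part in the tubulin values was not tested. Rises were also seen among the ovarian carcinoma and epithelial markers, where 3 of 12 tested genes rose and 0 fell, beside the same 1.91%. Those that rose were MUC16, CDH6 and CDH1, between 0.76 for CDH1 and 1.33 for MUC16, and the list's median was 0.06. At an unadjusted p under 0.05, 4 were higher and 1 lower, and the lowest value was -0.53. The summed intensity of this list's probes was likewise higher, at 95915 to 103955 in siHBO1 and 83726 to 92873 in siCTRL.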

How the data were processed

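RNA of 6 samples was measured on Illumina bead arrays. Per the file headers, the deposited table gives each probe's mean bead signal (intensity) per array, with its detection p-value. The authors' second table was taken from its values to be log2 intensity, normalised so that all 6 columns share their quantiles. Its background correction is unknown. The submitters' processing notes list GenomeStudio and lumi, without a role. Array medians of the intensities ran from 205 to 243, so the signals were taken as not normalised.

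Background correction and quantile normalisation used neqc (limma 3.58.1, R 4.3.3, offset 16), with the negative controls' level inferred from detection p-values. Probes with detection p under 0.05 on at least 3 of 6 arrays were tested (21333 of 47316). Groups were compared with lmFit and eBayes, siHBO1 minus siCTRL with no covariate, and Benjamini-Hochberg adjustment over all tested probes. The fit was also run on simulated arrays with noise drawn separately for each probe and array, so effects shared across an array were not tried. A list gene is its brightest tested probe. Of 30109 probes with 1 symbol (8 had several, 17199 none), 30070 were matched by Entrez identifier to a RefSeq symbol (GRCh38.p14). The rest kept the platform's symbol. Arrays have no depth, and their number limits the precision. Replicates of 3 per group were taken from the titles.

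The tubulin members and the lists were chosen with earlier results of these data known. Named were all member probes, KAT7, every tested further tubulin, up to 4 called genes of a list by size (or the 2 largest where 0 were called) and the 5 genes most like the largest-changing member. MC1R, DEF8, PSMG4, SBK1, MAP4, DCLK1, TTC5, SCAPER, CNOT8 and CNOT11 and the bright-probe count were added after values were seen. Alternatives were the authors' values, other background, scaling, offset, filter, prior, weighting, block and threshold settings, and leaving out each array.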

Additional observations from a re-analysis of the deposited data

How the results depend on the processing

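The count of called tubulin probes was 2 under all 10 alternatives that keep every array and ranged from 0 to 1 when 1 array was left out. The count over all probes, 582 as reported, was 979 with the authors' processed values, 1811 without background correction, 1020 with an offset of 50, 247 without a detection filter, 1136 with detection p under 0.01 on all 6 arrays, 1886 with a trended and robust prior, 913 with array weights and 1665 at an adjusted p under 0.10, and from 1 to 268 when 1 array was left out. For genes of the microtubule lists, 3 as reported, the counts were 5 with the authors' values, 9 without background correction, 5 with an offset of 50, 1 without a detection filter, 11 with the trended and robust prior, 6 with array weights, 7 at an adjusted p under 0.10, and from 0 to 1 with an array left out. With the replicate block, 282 probes, 2 tubulin probes and 1 list gene were called. Same-numbered arrays had correlations of deviations of 0.26, -0.02 and 0.22, and 4 of 6 arrays correlated best with their own number. These values do not decide whether the numbers mark pairs. The labels name no pairing, and the fit as reported used none. Signs turned for 4 uncalled probes: TUBA4A (-0.017) and the dimmer TUBB probe (-0.00079) with median scaling, TUBA1C ILMN_3251341 (0.0088) without siHBO1 replicate 1, and TUBA1A ILMN_2148819 (0.0018) without siHBO1 replicate 2. With 1 array left out, TUBA1C ILMN_3251341 ranged from -0.0354 to 0.0088 and TUBA1A ILMN_2148819 from -0.0298 to 0.0018. Median scaling moved the median of all tested probes to -0.06. The causes of these shifts were not tested.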

Other observations

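Tubulin genes outside the 10 members were mostly not above background. The probes of TUBA3C, TUBA3E, TUBA8, TUBAL3, TUBB1, TUBB4A and TUBB8 were detected on 0 of 6 arrays. TUBB4A, a β-tubulin of oligodendrocytes and neurons, had detection p-values of 0.0857, 0.205 and 0.148 on the siHBO1 arrays, against 0.631, 0.292 and 0.616 on the siCTRL arrays, so no fold is given.

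Some pairs of probes for 1 tubulin gene disagreed about whether it is expressed. For TUBA3D, ILMN_2215640 read log2 intensities of 11.52, 11.68 and 11.43 in siHBO1, against 11.71, 11.69 and 11.66 in siCTRL, while ILMN_2215639 was detected on 0 arrays. For the pseudogene TUBA3FP, ILMN_2050434 read 13.95, 13.80 and 13.97 in siHBO1, against 13.89, 13.98 and 13.89 in siCTRL, while ILMN_1652940 was detected on 0 arrays. Which transcripts the bright probes of these pairs read was not tested.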
